A study of Mus musculus with 4 samples.

Results

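The core histone genes of the replication-dependent clusters were examined in mouse thymocytes, the developing T cells of the thymus. Members were the gene rows whose symbol starts with Hist1h2, Hist1h3, Hist1h4, Hist2h, Hist3h or Hist4 and that held at least 1 UMI, the unique molecular identifier that tags a captured RNA molecule. The rule matched 61 of 31053 gene rows, and 60 of these held a UMI, out of 16104 rows that did. The exception was Hist1h2aa, an H2A gene known from testis. Of the 60 members, 17 encode H2A, 18 H2B, 12 H3 and 13 H4. In RefSeq on GRCm38.p6, 47 lie in the Hist1 cluster on chromosome 13, 10 in Hist2 on chromosome 3, 2 in Hist3 on chromosome 11 and 1, Hist4h4, on chromosome 6. All 60 are annotated as protein-coding.

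Wild-type thymi had been grafted for 28 days in both groups, and the thymocytes, labelled as DN3-DN4, ISP (immature single positive) together with DP (double positive) cells, were profiled with a droplet 5′ RNA assay. Turnover names grafts whose thymocytes are renewed by incoming progenitors, and autonomy names grafts that keep making T cells without them. Each condition had 1 gene expression library, which leaves no replicate spread to test against, and no p-value is given. The labels used here did not describe the hosts, the age or the number of animals, or whether animals were pooled.

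Core histones H2A, H2B, H3 and H4 form the protein spool around which DNA is wound, and a cell that copies its DNA needs a new set. Replication-dependent histone genes supply it: their transcripts accumulate in S phase, usually end in a stem-loop bound by the protein SLBP in place of a poly(A) tail, and are degraded when DNA synthesis stops. In the thymus, ISP and early DP cells divide fast before small DP cells stop dividing and rearrange their T cell receptor alpha genes. Reverse transcription in this assay is primed on A-rich RNA, so only part of these transcripts can be counted, and that part was not measured here.

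Promoter sequences are shown for the members on which the results below turn: the 3 with the most UMIs, a divergent pair, the H3 gene with the highest mean ratio between cycling and non-cycling barcodes over both libraries, the H4 gene with the most UMIs, and 2 genes that did not follow the others. Each is the 150 bases before the RefSeq start on GRCm38.p6, read 5′ to 3′ on the gene's own strand. Capitals mark CCAAT (read ATTGG where the motif lies on the other strand), the TATA box TATAAA (likewise read TTTATA) and the octamer ATTTGCAT (likewise read ATGCAAAT).
Hist1h2ap (chr13:21833476-21833625, minus strand): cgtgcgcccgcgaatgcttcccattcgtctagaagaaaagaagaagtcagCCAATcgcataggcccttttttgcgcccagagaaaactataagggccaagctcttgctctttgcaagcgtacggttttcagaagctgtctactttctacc
Hist1h2ao (chr13:21810217-21810366, plus strand): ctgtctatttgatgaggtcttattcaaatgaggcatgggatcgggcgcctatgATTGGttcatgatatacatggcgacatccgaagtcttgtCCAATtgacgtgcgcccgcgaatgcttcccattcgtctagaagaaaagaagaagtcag
Hist1h2ae (chr13:23571221-23571370, minus strand): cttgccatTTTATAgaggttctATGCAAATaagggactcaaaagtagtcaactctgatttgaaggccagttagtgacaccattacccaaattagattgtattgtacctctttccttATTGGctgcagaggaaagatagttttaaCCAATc
Hist1h2ag (chr13:22042950-22043099, minus strand): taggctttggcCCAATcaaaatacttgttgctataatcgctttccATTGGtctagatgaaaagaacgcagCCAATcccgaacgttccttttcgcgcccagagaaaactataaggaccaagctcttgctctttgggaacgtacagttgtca
Hist1h2bj (chr13:22043048-22043197, plus strand): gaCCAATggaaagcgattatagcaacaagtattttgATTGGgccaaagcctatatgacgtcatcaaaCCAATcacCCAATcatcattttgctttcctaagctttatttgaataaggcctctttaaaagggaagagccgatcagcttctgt
Hist1h3b (chr13:23752195-23752344, plus strand): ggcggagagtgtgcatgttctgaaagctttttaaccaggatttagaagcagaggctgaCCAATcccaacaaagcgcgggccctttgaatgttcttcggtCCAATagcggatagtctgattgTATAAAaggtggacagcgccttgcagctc
Hist1h4d (chr13:23581418-23581567, plus strand): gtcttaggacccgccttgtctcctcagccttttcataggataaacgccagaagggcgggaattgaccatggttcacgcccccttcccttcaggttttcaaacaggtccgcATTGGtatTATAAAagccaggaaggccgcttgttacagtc
Hist3h2ba (chr11:58948761-58948910, plus strand): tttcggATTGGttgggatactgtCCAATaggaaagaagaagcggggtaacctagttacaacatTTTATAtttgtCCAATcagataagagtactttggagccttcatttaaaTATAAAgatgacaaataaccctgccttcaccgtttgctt
Hist2h2aa1 (chr3:96245347-96245496, plus strand): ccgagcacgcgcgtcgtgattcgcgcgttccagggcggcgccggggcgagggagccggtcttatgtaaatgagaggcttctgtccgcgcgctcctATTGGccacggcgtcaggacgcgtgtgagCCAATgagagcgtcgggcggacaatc

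The first letters of the Hist1h2ap sequence are the last letters of the Hist1h2ao sequence. The 300-base windows of these genes, 250 bases before and 50 after the start, were identical over 200 of 200 bases at an offset of 100 bases. Hist1h2ap and Hist1h2ae, by contrast, matched at 83 of 300 bases. Hist1h2ag and Hist1h2bj lie head to head, and their windows overlap on opposite strands. The windows of Hist1h2bq and Hist1h2br were identical over 300 bases, those of Hist1h4m and Hist1h4n over 298 of 299, those of Hist2h3c1 and Hist2h3c2 over 284 of 285 and those of Hist2h2aa1 and Hist2h2aa2 over 249 of 260. How the counting divided reads among such near-identical copies is uncertain, and values of these genes are given with that limit.

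Of the 60 members, 54 had exactly 1 promoter window in the table. CCAAT, the letters read by the factor NF-Y, was found on either strand in the 150 upstream bases of 17 of 17 H2A and 15 of 15 H2B windows, 8 of 10 H3 windows and 3 of 12 H4 windows, against 24.5% of all 32851 windows. TATAAA, a core TATA box, was found in 19 of 54 (35.2%) against 7.57%. ATTTGCAT, the octamer read by OCT1 and known from H2B promoters, was found in 5 of 15 H2B and 4 of 17 H2A windows and in none of the 10 H3 and 12 H4 windows, against 0.998%. In the sequences above, Hist3h2ba holds CCAAT 3 times and TATAAA 2 times. Hist1h2ae holds the octamer beside a TATA box, but at the end of its window farthest from its start. The window of the divergent H2B gene Hist1h2bg overlaps it and holds the same letters on the other strand, nearer its own start. In 9 cases the windows of divergent genes overlap, so the same site can be counted for both genes. Near-identical copies also repeat the same letters. All of these matches describe letters and not bound factors.

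In turnover 4374 barcodes with 20163286 UMIs were deposited, and in autonomy 4587 barcodes with 16388810 UMIs. Barcodes with at least 1000 UMIs were kept, 4227 and 4414, with medians of 2112 and 2430.5 UMIs. They held 127250 and 80603 UMIs of members. Doublets were not called or removed. The libraries shared 31 barcode sequences, 29 of them kept. In autonomy 934 kept barcodes had Y-linked and no Xist UMIs and 1781 the reverse, against 2459 and 0 in turnover, so the autonomy library mixed cells of both sexes. Of the defining markers, all 8 of the DP list were detected in both libraries, all 5 erythroid genes had 0 UMIs, and the 8 macrophage genes summed to 12.6 counts per 1000000 UMIs (CPM) in turnover and 137 CPM in autonomy. The 4 mature T cell markers summed to 25.1 and 153 CPM.

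Cycling state was read from 8 genes outside the members: Mki67 and Top2a, known for late S phase to mitosis, and Mcm2 to Mcm7, which encode the replicative helicase and are known to peak earlier. Barcodes with 0 UMIs of these genes were called non-cycling (1944 in turnover and 1751 in autonomy), those with 3 or more cycling (841, 19.9%, 18.7 to 21.1, and 632, 14.3%, 13.3 to 15.4), and those between were set aside (1442 and 2031). The state is a range and not a cell type, since 449 turnover and 868 autonomy barcodes lay at 2 or 3 UMIs. It also moves with depth: cycling barcodes had medians of 12574 and 6505 UMIs, and non-cycling barcodes 1901.5 and 2275. All intervals are exact, at 95%, and cover counting error only. They treat UMIs as independent, although cells of a library share animals and T cell clones.

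A handful of H2A genes made up most of the signal. Each UMI counts a molecule whatever its length, and 54 of the 60 gene models span 375 to 911 bases. Hist1h2ap held 72150 turnover and 47150 autonomy UMIs, 56.7% and 58.5% of all member UMIs. Hist1h2ae followed with 10885 and 5200 UMIs and Hist1h2ao with 8025 and 5261, and these 3 genes together gave 71.5% of member UMIs. The median member had 810 UMIs over both libraries, 25 had 1000 or more and 7 had fewer than 100. Hist1h2ba, a testis H2B gene, had a single UMI. Hist1h2ap and its near-identical copy Hist1h2ao kept a fixed proportion: 8.99 UMIs of the first per UMI of the second in turnover (8.79 to 9.20) and 8.96 in autonomy (8.71 to 9.22). In the non-cycling barcodes the proportion was 9.34 (7.62 to 11.6) and 8.86 (7.71 to 10.2), and the intervals of all library and state sums overlapped. Because Hist1h2ap weighs so much, summed levels are also given without it.

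Core histone transcripts were concentrated in cycling barcodes. Cycling barcodes held 95.1% of member UMIs and 63.1% of all UMIs in turnover, and 86.9% and 38.6% in autonomy. The summed level was 9567 CPM in cycling and 834 CPM in non-cycling turnover barcodes, a ratio of 11.5 (11.1 to 11.9). In autonomy it was 11163 and 1112 CPM, a ratio of 10.0 (9.75 to 10.3). Without Hist1h2ap the ratios were 6.75 and 6.58. In turnover 44 of 48 members with at least 100 UMIs over both states were 2-fold or more higher in cycling barcodes and 2 lower, against 12.5% and 29.3% of all 8402 genes tested. In autonomy 41 of 44 were higher and 2 lower, against 10.1% and 21% of 8192 genes. The median member stood at 3.103 and 3.24 on the log2 scale and the median gene at -0.50 and -0.42. The same 41 members passed 2-fold upward in both libraries. When every barcode was thinned to 1000 UMIs and 1 UMI was enough to call it cycling, the summed ratios were 5.81 and 3.16. There 13 of 17 tested members in turnover and 6 of 13 in autonomy were 2-fold higher and 0 lower. Of all genes in the same thinned barcodes 3.5% and 0.953% were higher and only 0.715% and 0.129% lower.

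H2A genes showed the widest gap in summed level, which in autonomy leans on Hist1h2ap. Without that gene the H2A ratios were 14.6 (13.5 to 15.7) in turnover and 11.4 (10.7 to 12.2) in autonomy. With all H2A members the gap was wider. Their summed level was 7968 CPM in cycling and 405.5 CPM in non-cycling turnover barcodes (ratio 19.6, 18.7 to 20.6), and 9422 and 682 CPM in autonomy (13.8, 13.3 to 14.3). Of the tested H2A members, 13 of 14 in turnover and 12 of 13 in autonomy were 2-fold higher. Hist1h2ap stood at 5559.6 and 240.1 CPM in turnover and 6846 and 456 CPM in autonomy. Hist1h2ae stood at 831 and 48.9 CPM, and in autonomy at 744 and 56.9 CPM. Hist1h2ao, at 618 and 25.7 CPM and at 765 and 51.5 CPM, had nearly the ratio of its copy. Lower on the scale of UMIs, Hist1h2an (160.2 and 10.98 CPM in turnover), Hist1h2ab (155 and 8.23 CPM) and Hist1h2ai (89.3 and 12.2 CPM) kept the same order of states.

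The clearest contrast among H2A genes was in Hist1h2ag, Hist1h2af and Hist1h2ah. Hist1h2af had 1363 cycling and 3 non-cycling UMIs in turnover, a ratio of 144 (49.1 to 699). In autonomy it had 765 and 0, at least 175-fold higher against a floor of 3 counts in that library's non-cycling sum. Hist1h2ag stood at 135 CPM in cycling and 3.74 CPM in non-cycling turnover barcodes, and at 151 and 1.39 CPM in autonomy. Hist1h2ah stood at 46.7 and 0.998 CPM, and at 45.8 and 0.464 CPM. The non-cycling levels of these genes rest on few UMIs, so the size of their ratios is uncertain. These 3 genes and the H3 gene Hist1h3b had the highest mean log2 ratios of the 44 members tested in both libraries. At the other end, Hist2h2aa1 of the Hist2 cluster stood at 33.0 and 24.0 CPM in turnover and at 38.3 and 36.7 CPM in autonomy, ratios of 1.38 (1.10 to 1.74) and 1.04 (0.850 to 1.28).

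H2B genes were split. Their summed ratio was 2.33 (2.19 to 2.49) in turnover and 2.41 (2.25 to 2.59) in autonomy, while 11 of 13 tested members were 2-fold higher and 2 lower in each library. Hist1h2bj, the head-to-head neighbour of Hist1h2ag, stood at 97.8 and 5.99 CPM in turnover and at 83.7 and 7.19 CPM in autonomy. Hist2h2bb stood at 96.2 and 5.49 CPM and at 66.2 and 5.34 CPM. The low summed ratio rests on Hist3h2ba, which gave 631 of 1077 non-cycling H2B UMIs in turnover and 601 of 1036 in autonomy. The 6 members with a RefSeq gene model over 1000 bases are all H2B genes. The 3 of them with enough UMIs, Hist1h2bc, Hist1h2be and Hist2h2be, had a median ratio of 2.49 in turnover and 2.62 in autonomy, against 10.9 and 9.79 for the other tested members. Whether reads from other transcripts in these long models were counted was not tested.

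H3 and H4 genes followed the H2A pattern with smaller gaps in the sums. In autonomy, however, the H3 interval overlapped that of H2A without Hist1h2ap. All 10 tested H3 members were 2-fold higher in cycling barcodes in both libraries, with summed ratios of 9.86 (8.53 to 11.5) and 10.5 (9.29 to 11.96). Hist1h3b stood at 87.8 and 2.25 CPM in turnover and at 129.6 and 0.928 CPM in autonomy, ratios of 39.1 (20.5 to 85.7) and 140 (54.3 to 514). Hist1h3e, the H3 member with the most UMIs, stood at 96.5 and 16.2 CPM and at 132 and 24.6 CPM. Among H4 members 10 of 11 in turnover and 8 of 8 in autonomy were 2-fold higher, with summed ratios of 4.50 (4.09 to 4.97) and 4.003 (3.66 to 4.39). Hist1h4d stood at 186 and 31.2 CPM in turnover and at 144 and 34.8 CPM in autonomy, and Hist1h4i at 88.4 and 20.2 CPM and at 83.4 and 23.2 CPM. Of the H4 genes tested in both libraries Hist1h4c had the lowest ratios, 2.03 (1.55 to 2.70) and 2.30 (1.70 to 3.15).

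**Figure D1:**
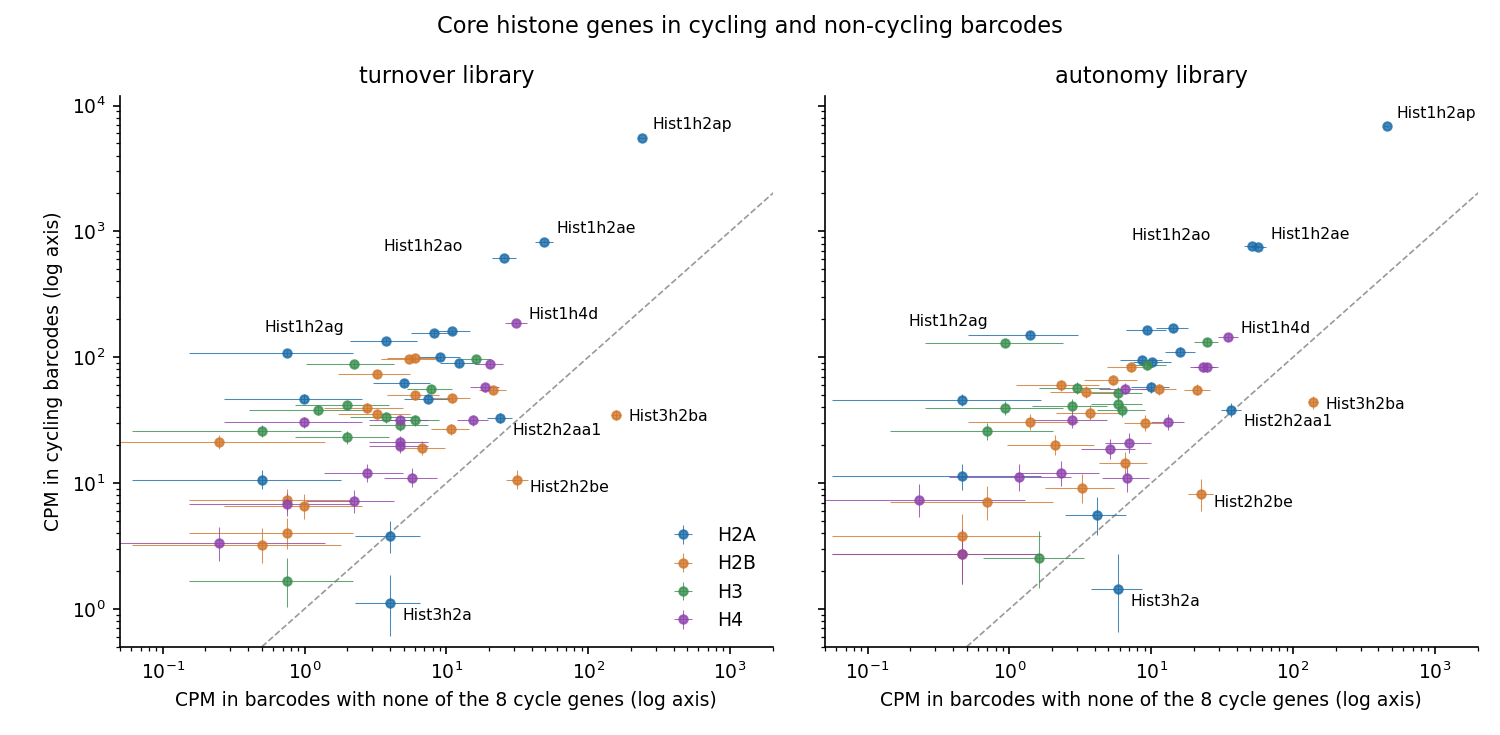
Level of each core histone gene in non-cycling barcodes (x axis, CPM, log scale) and in cycling barcodes (y axis, CPM, log scale), in the turnover and the autonomy library. Points are genes coloured by family, bars are 95% counting intervals, the dashed line marks equal levels, and genes with 0 UMIs in non-cycling barcodes are not drawn. Most points lie above the line, with Hist1h2ap at 5559.6 and 6846 CPM in cycling barcodes, while Hist3h2ba, Hist2h2be and Hist3h2a lie below it.

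A small set of members ran the other way. Hist3h2ba, the H2B gene of the Hist3 cluster, was higher in non-cycling barcodes: 157 against 34.9 CPM in turnover (cycling over non-cycling ratio 0.221, 0.196 to 0.2504) and 139 against 43.8 CPM in autonomy (0.314, 0.272 to 0.363). Hist2h2be stood at 31.7 and 10.7 CPM in turnover (0.337, 0.262 to 0.432) and at 22.5 and 8.13 CPM in autonomy (0.361, 0.252 to 0.512). Hist3h2a, next to Hist3h2ba on chromosome 11, had 38 and 57 UMIs in all and missed the count minimum, with 3.99 against 1.11 CPM and 5.80 against 1.43 CPM. The intervals of the other 2 did not reach 1 in either library. In thinned barcodes the ratios were 0.687 and 0.927 for Hist3h2ba and 0.637 and 0.866 for Hist2h2be. Each was still below 1, but none reached the 2-fold difference. Intervals are not given for these thinned ratios, so the direction in autonomy is uncertain.

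Core histones as a whole were higher in non-cycling barcodes with a UMI of Rag1, which encodes part of the recombinase of T cell receptor genes, a split added after the values of Hist3h2ba were seen. Their summed level was 927 CPM with and 533 CPM without such a UMI in turnover, and 1240 and 584 CPM in autonomy. Hist1h2ap moved in the same direction, with 274 and 130 CPM and with 516 and 212 CPM, as did Hist3h2ba, with 177 and 94.3 CPM and with 156 and 70.1 CPM. Non-cycling barcodes with 2 or more macrophage marker UMIs, 7 in turnover and 77 in autonomy, held 1 and 25 UMIs of Hist3h2ba. Without all barcodes with such markers its cycling ratios were 0.220 and 0.308.

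What was left in non-cycling barcodes differed from gene to gene. As a share of the cycling level, the non-cycling level of members ranged from 0.695% to 452% in turnover, with a median of 11.6%, and from 0% to 318% in autonomy, with a median of 10.6%. S phase genes had medians of 3.85% and 6.19%, G2/M genes 0.798% and 1.25%, and replication-independent histone genes 82.8% and 92.1%. Hist1h2ap was 28.8% of member UMIs in non-cycling against 58.1% in cycling turnover barcodes, and 41.0% against 61.3% in autonomy. A member UMI was present in 73.4% (71.4 to 75.4) of non-cycling turnover barcodes and in 95.7% (94.1 to 97.0) of cycling ones, and in 81.2% (79.2 to 83.0) and 88.9% (86.2 to 91.3) in autonomy. After thinning to 1000 UMIs these shares were 51.6% and 80.7% in turnover and 57.3% and 65.2% in autonomy. No cell type in the libraries is known to lack these genes, so the part of free RNA in the non-cycling level was not tested.

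Within cycling barcodes, core histone levels were highest where Mki67 and Top2a prevailed over the Mcm genes. Cycling barcodes were called Mcm-led when Mcm UMIs exceeded those of Mki67 and Top2a (540 in turnover and 542 in autonomy) and Mki67/Top2a-led otherwise (301 and 90). The summed level was 5984 CPM in Mcm-led and 15911 CPM in Mki67/Top2a-led turnover barcodes, a ratio of 0.376 (0.372 to 0.380). In autonomy it was 7693 and 28166 CPM, a ratio of 0.273 (0.269 to 0.277). In turnover 39 of 47 tested members were 2-fold or more lower in Mcm-led barcodes and 0 higher, against 3.59% and 2% of 7486 genes. In autonomy 39 of 42 were lower and 0 higher, against 4.49% and 5.46% of 6574 genes. All 42 members tested in both libraries had a ratio below 1 in both, as did 54% and 49.5% of all genes.

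All 4 families shared this order. H2A stood at 4980 and 13257 CPM in turnover, H2B at 400 and 1031 CPM, H3 at 277 and 799 CPM and H4 at 327 and 825 CPM. The ratios were 0.376, 0.388, 0.347 and 0.397 in turnover and 0.272, 0.260, 0.321 and 0.248 in autonomy. Single genes spread more widely. Hist2h2bb had 35.5 CPM in Mcm-led and 204 CPM in Mki67/Top2a-led turnover barcodes, a ratio of 0.174 (0.152 to 0.199), and in autonomy 0.149 (0.122 to 0.182). Hist1h4i differed least of the tested members, at 77.9 and 107 CPM in turnover (0.729, 0.647 to 0.822) and 75.6 and 121 CPM in autonomy (0.623, 0.510 to 0.766). Even Hist3h2ba and Hist2h2be, low in cycling barcodes, had ratios of 0.444 and 0.608 in turnover and 0.456 and 0.374 in autonomy. In thinned barcodes, however, their order turned: Hist3h2ba stood at 1.56 in turnover and 1.21 in autonomy and Hist2h2be at 1.43 in autonomy.

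Finer bins placed the highest levels along the Mcm share. Barcodes with 10 or more UMIs of the 8 genes, 657 in turnover and 266 in autonomy, were placed in 5 equal bins by the Mcm share of those UMIs. In turnover the summed core histone level was 2438 CPM at an Mcm share of 80 to 100%, then 8962, 12399 and 16210 CPM in the bins that followed, and 20554 CPM at 0 to 20%. In autonomy it was 4226, 18100, 23773, 33213 and 29516 CPM in the same order. The highest autonomy bin rests on Hist1h2ap: without that gene the level was 11877 CPM at 20 to 40% and 12365 CPM at 0 to 20%, which is then the highest bin, as in turnover. S phase genes such as Pcna, the sliding clamp of DNA polymerases, peaked earlier. Their summed level was highest at an Mcm share of 60 to 80% in both libraries, where core histones had reached 43.6% of their own maximum in turnover and 54.5% in autonomy. Slbp, whose protein binds the stem-loop of histone mRNA, followed the S phase genes, with 718 CPM at 60 to 80% and 306 CPM at 0 to 20% in turnover, and 807 and 300 CPM in autonomy. G2/M genes came last, with only 15.6% and 24.5% of their maximum at 60 to 80%. The axis is built from early and late cycle genes, so the order of the S phase and G2/M lists is partly set by it. Time in the cycle was not measured.

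**Figure D2:**
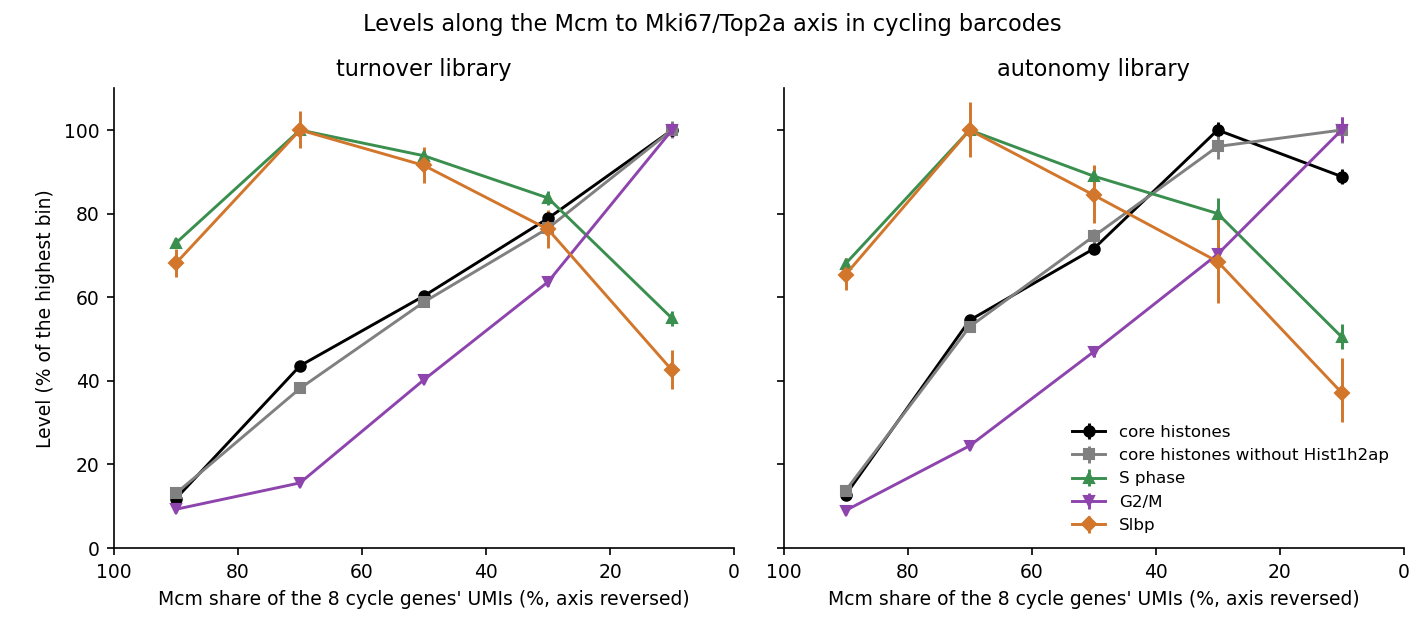
Summed level of core histones, core histones without Hist1h2ap, S phase genes, G2/M genes and Slbp along the Mcm share of the 8 cycle genes' UMIs (x axis, %, reversed so that the share of Mki67 and Top2a grows to the right), as % of each curve's highest bin (y axis). Bars are 95% counting intervals, and each point pools 109 to 185 turnover or 25 to 120 autonomy barcodes. Core histones climb later than the S phase genes and earlier than the G2/M genes, from 11.9% and 12.7% of their maximum at an Mcm share of 80 to 100%.

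Families were at similar shares of their maximum in the first bin, and in autonomy they differed further on. At an Mcm share of 80 to 100%, H2A stood at 10.9% of its highest bin in turnover and 11.97% in autonomy, H2B at 17.6% and 17.5%, H3 at 14.2% and 12.5% and H4 at 16.3% and 12.6%. H2A without Hist1h2ap was close to these, at 10.95% and 12.4%. In turnover each family was highest at an Mcm share of 0 to 20%. In autonomy H2B, H3 and H4 were highest there too, while H2A was highest at 20 to 40%, with and without Hist1h2ap, and stood at 83.4% at 0 to 20%. At 40 to 60% in autonomy H3 was already at 99.8% of its maximum, H2A at 69.6%, H2B at 56.8% and H4 at 49.3%. At 80 to 100% Hist1h4i was already at 58.6% of its maximum in turnover and 54.7% in autonomy, and Hist1h2ag at 28.2% and 23.6%. Barcodes of a bin differed widely among themselves. At an Mcm share of 0 to 20% the median barcode had 241 member UMIs per 10000 in turnover and 313 in autonomy, and at 80 to 100% it had 12.99 and 15.7. Even at a share under 20%, the lowest barcode had 3.70 in turnover and 6.07 in autonomy.

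**Figure D3:**
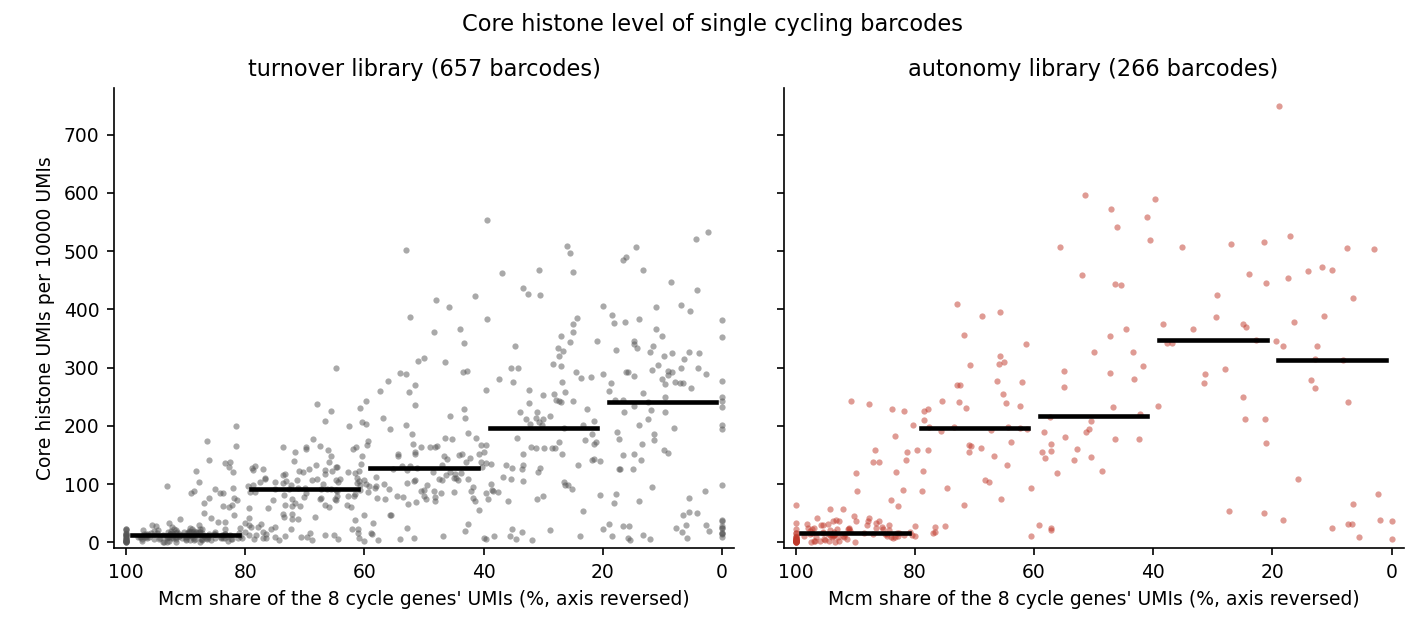
Core histone UMIs per 10000 UMIs (y axis) of each barcode with 10 or more UMIs of the 8 cycle genes, by the Mcm share of those UMIs (x axis, %, reversed), in 657 turnover and 266 autonomy barcodes. Horizontal bars are the medians of the 5 bins. Medians climb from 12.99 to 241 in turnover and from 15.7 to 347 and then 313 in autonomy, with single barcodes spread from 0 to 749.9 in the autonomy panel.

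The libraries were then compared, to ask whether core histone levels differed between autonomy and turnover. Over all kept barcodes the summed level was 6344 CPM in turnover and 4957 CPM in autonomy, a ratio of 0.781 (0.774 to 0.788). Of 47 members with at least 200 UMIs, 0 were 2-fold or more higher in autonomy and 2 lower, against 13.6% and 2.3% of all 8998 genes. Those 2 were Hist1h3c, at 0.424 (0.354 to 0.506), and Hist2h2bb, at 0.461 (0.413 to 0.513). In all, 39 of 47 had a ratio below 1, as did 30.7% of all genes, and the median member stood at -0.38 (log2) and the median gene at 0.28. Hist3h2ba (1.27, 1.18 to 1.36) and Hist2h2aa1 (1.26, 1.12 to 1.41) had the highest ratios. Hist2h2be, higher in non-cycling barcodes like Hist3h2ba, stood at 0.935 (0.797 to 1.10). The share of cycling barcodes was smaller in autonomy, 14.3% against 19.9%, and whether it accounts for these values was not tested. That share depends on depth: thinned to 1000 UMIs, 1517 of 4227 turnover and 1470 of 4414 autonomy barcodes were called cycling. Without the 4% deepest barcodes of each library the summed ratio was 0.441. There 0 of 45 tested members were 2-fold higher and 23 lower, against 13.4% and 4.41% of all genes. TMM factors gave a summed ratio of 0.637, with 0 of 47 members higher and 9 lower, against 6.89% and 4.86% of genes. Barcodes with Y-linked UMIs only gave 0.802, with 1 of 44 higher and 6 lower, against 12.9% and 2.75%.

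Within cycling barcodes the direction depended on how barcodes were weighted. The pooled level was 9567 CPM in turnover and 11163 CPM in autonomy (ratio 1.17, 1.16 to 1.18), but 0.955 with TMM factors, 0.735 with equal weight for each barcode, 0.651 in thinned barcodes and 0.808 without the 4% deepest. The median cycling barcode had 46.7 member UMIs per 10000 in turnover and 12.9 in autonomy, where 239 of 632 cycling barcodes lay at the threshold of 3 UMIs, against 108 of 841. With the threshold at 10 UMIs the ratio was 1.44. Of 51 tested members 0 were 2-fold higher and 0 lower, against 12% and 0.897% of 8582 genes, and with the threshold at 10 UMIs 2 were higher and 0 lower, against 7.29% and 0.864%. In thinned barcodes 0 of 20 were higher and 6 lower, against 10.6% and 2.01%, and with Y-linked barcodes only 5 of 48 were higher and 1 lower, against 9.02% and 1.71%. In all, 20 of 51 had a ratio below 1, as did 31.8% of all genes. The median member stood at 0.09 (log2) and the median gene at 0.24.

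Families and genes differed in this comparison more than the sum did. Relative to turnover, H3 stood at 1.396 (1.34 to 1.45) in cycling autonomy barcodes, H2A at 1.18 (1.17 to 1.19), H4 at 1.01 (0.969 to 1.06) and H2B at 0.923 (0.888 to 0.961). TMM factors divide each of these by 1.22, which leaves H3 above 1 and puts H2A and H4 below it. Hist1h4k, an H4 gene, stood at 31.6 CPM in turnover and 56.3 CPM in autonomy (1.78, 1.54 to 2.06). The H3 genes Hist1h3h (23.2 and 38.3 CPM, 1.65, 1.39 to 1.97), Hist2h3b (33.3 and 52.3 CPM, 1.57, 1.36 to 1.82) and Hist1h3i (55.6 and 86.4 CPM, 1.55, 1.39 to 1.74) came next. Hist1h3c, also an H3 gene, had the lowest ratio, with 37.9 and 25.8 CPM (0.681, 0.566 to 0.815). Hist2h2bb stood at 96.2 and 66.2 CPM (0.688, 0.614 to 0.769), Hist1h2bf at 19.0 and 14.4 CPM (0.756, 0.587 to 0.967) and Hist2h2be at 10.7 and 8.13 CPM (0.762, 0.541 to 1.06). Without the 4% deepest barcodes Hist1h3h was at 0.688, Hist2h3b at 0.933 and Hist1h3i at 0.782, while Hist1h4k stayed above 1 at 1.17. Among barcodes with Y-linked UMIs only, 136 of them cycling in autonomy, Hist1h3h was at 0.584 and Hist1h3i at 0.896. In thinned barcodes Hist2h3b was at 0.491 and Hist2h2be at 1.07.

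**Figure D4:**
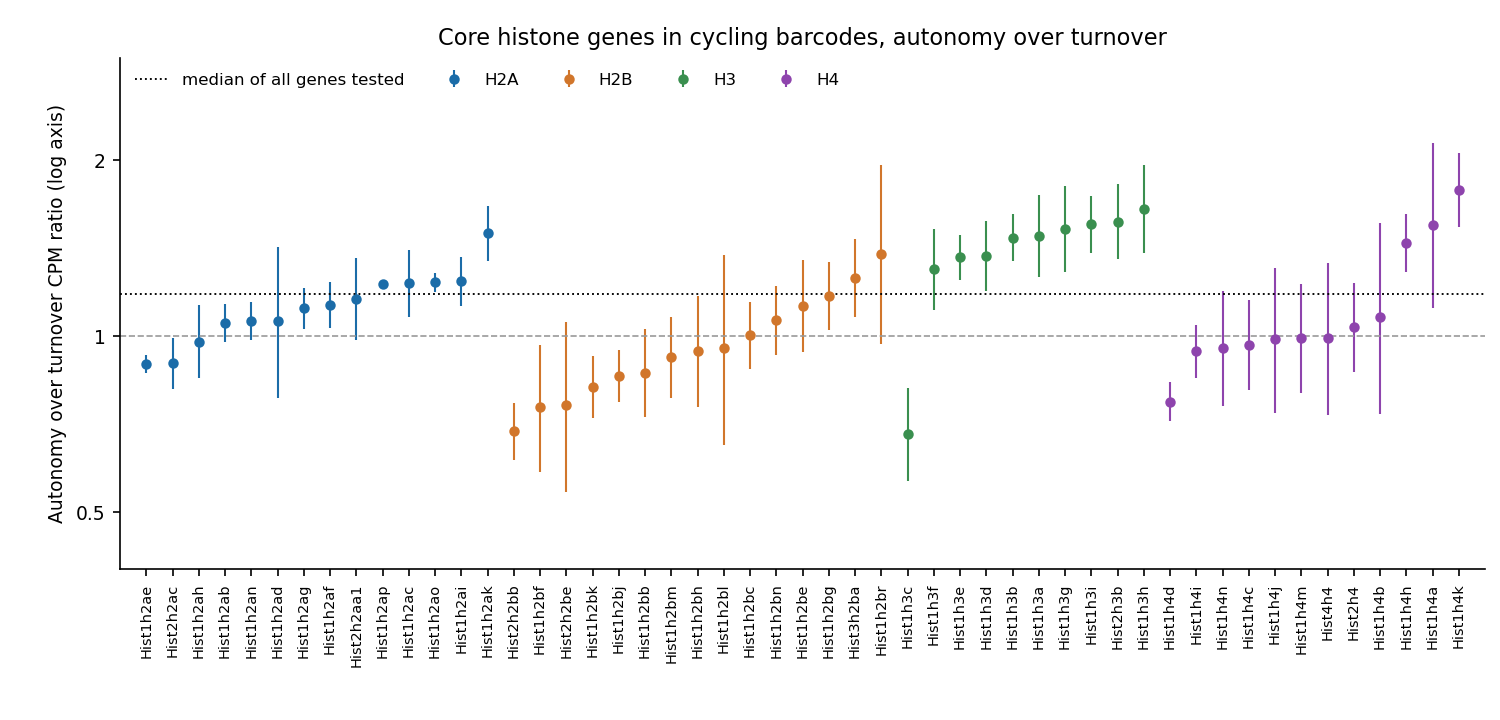
Ratio of autonomy over turnover CPM in cycling barcodes (y axis, log scale) for each of the 51 core histone genes with at least 100 UMIs, grouped by family and ordered by ratio (x axis). Bars are 95% counting intervals, the dashed line marks equal levels and the dotted line the median of all genes tested. Ratios run from 0.681 for Hist1h3c to 1.78 for Hist1h4k, and 9 of 10 H3 genes lie above 1.

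When barcodes were grouped by position in the cycle, autonomy stood above turnover in pooled levels. In Mki67/Top2a-led barcodes the summed level was 15911 CPM in turnover and 28166 CPM in autonomy, a ratio of 1.77 (1.75 to 1.79), and in Mcm-led barcodes 5984 and 7693 CPM (1.29, 1.27 to 1.30). In the first, 10 of 45 tested members were 2-fold higher and 0 lower, against 7.59% and 1.05% of 5602 genes. In the second it was 3 of 46 and 0, against 12.8% and 0.876% of 7992 genes. The median Mcm-led barcode, however, had 15.2 member UMIs per 10000 in turnover and 10.7 in autonomy. Mcm-led barcodes had median depths of 13556.5 and 5179 UMIs, and 104 of 540 and 233 of 542 lay at the threshold of 3 UMIs. The median Mki67/Top2a-led barcode had 167 and 285 member UMIs per 10000. The highest ratios in Mki67/Top2a-led barcodes were those of Hist1h4k, with 44.2 and 165 CPM (3.72, 3.02 to 4.58), and Hist1h4h, with 104 and 308 CPM (2.96, 2.56 to 3.41).

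In the 5 bins of Mcm share the ratio of autonomy over turnover was 1.44 (1.401 to 1.47) at 0 to 20%, then 2.05, 1.92 and 2.02, and 1.73 (1.68 to 1.79) at 80 to 100%. With equal weight for each barcode the same bins gave 1.27, 1.62, 1.79, 2.21 and 1.43. The median of all genes tested in each bin lay between 0.982 and 1.10, and S phase genes lay between 1.04 and 1.14. G2/M genes lay between 0.940 and 1.52, highest at 60 to 80%, so in that bin the libraries also differed in these genes. Autonomy bins held 25 to 120 barcodes and turnover bins 109 to 185, and their median depths were of like size, 10735 to 19965.5 UMIs against 8675 to 22729. All 5 bins were above 1 without Hist1h2ap (lowest 1.39), without macrophage marker barcodes (1.43), without mature T cell marker barcodes (1.56) and without the largest autonomy clone, found in 191 autonomy and 0 turnover barcodes (1.44). Without the 4% deepest barcodes of each library only 2 bins kept 20 barcodes in both, 1 above 1 and 1 below it at 0.866 (0.807 to 0.928). With Y-linked barcodes only, a single bin was left, at 1.72. Macrophage markers summed to 5.37 CPM in cycling turnover and 61.5 CPM in cycling autonomy barcodes and mature T cell markers to 23.8 and 218 CPM. The values without those barcodes are given above. The 3 DN3 markers, Il2ra, Hes1 and Ptcra, summed to 188 CPM in cycling turnover and 439 CPM in cycling autonomy barcodes. Cycling barcodes with an Il2ra UMI, 126 in turnover and 202 in autonomy, held 4505 and 12235 CPM of core histones. The part of cell stage in the ratios between the libraries was not tested.

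In non-cycling barcodes the summed level was 834 CPM in turnover and 1112 CPM in autonomy (1.33, 1.28 to 1.39). Only 14 members had at least 100 UMIs there, and 1, Hist1h2ao at 2.004 (1.58 to 2.56), was 2-fold higher and 0 lower, against 8.46% and 0.89% of 7526 genes. Its copy Hist1h2ap stood at 1.90 (1.76 to 2.06). H2A members summed to 1.68 (1.58 to 1.79), while H2B members summed to 0.894 (0.821 to 0.975) with Hist3h2ba at 0.886 (0.791 to 0.992). Without Hist1h2ap the sum of all members was 1.10. The ratio ran from 1.15 to 1.45 over the alternatives with the same genes.

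Genes that work with the core histones showed where the pattern was shared. Linker histones, which bind the DNA between nucleosomes, include 5 genes of the Hist1 cluster. In turnover 5 of 7 tested linker genes were 2-fold higher in cycling barcodes and 0 lower, led by Hist1h1b (15.0) and Hist1h1a (13.2), and in autonomy 4 of 5, led by the same genes (13.9 and 8.18). They also shared the order within the cycle, with 6 of 7 and 5 of 5 at least 2-fold lower in Mcm-led barcodes. In cycling barcodes 2 of 7 were 2-fold lower in autonomy, H1f0 (0.157, 0.105 to 0.226) and H1fx (0.377, 0.221 to 0.612), neither of which lies in the Hist1 cluster. The Hist1 linker genes stood between 1.37 and 2.05 in autonomy over turnover across the 5 bins of Mcm share.

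Histones listed as replication-independent, most of which are made throughout the cell cycle and can replace the others in chromatin, mostly did not share it. Of 8 tested, 3 were 2-fold higher in cycling barcodes and 0 lower in both libraries. They were Cenpa, the histone of centromeres (13.3 and 7.93), H2afz (6.42 and 4.74) and H2afx, the H2A form phosphorylated at DNA breaks (5.81 and 3.17). H2afz barely moved along the bins, with 74.9% of its maximum at an Mcm share of 80 to 100% in turnover and 69.8% in autonomy. It stood below turnover in autonomy in all 5 bins, from 0.791 to 0.893, where core histones stood above. H2afx stood at 1.43 to 2.32 in them and climbed along the bins as core histones did. At an Mcm share of 80 to 100% it stood at 7.11% of its maximum in turnover and 7.35% in autonomy.

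Among 14 tested genes for transcription and 3′ processing of histone mRNA, 1 was 2-fold higher in cycling barcodes and 0 lower: Slbp, at 542 and 66.6 CPM in turnover (8.13) and 479 and 95.1 CPM in autonomy (5.03). Sympk, a scaffold of the cleavage complex, was the only gene of this list past 2-fold between the libraries in cycling barcodes (2.37, 1.96 to 2.87). In the bins Slbp stood from 0.981 to 1.12 in autonomy over turnover. Histone chaperones, which hand histones to new DNA, were 2-fold higher in cycling barcodes in 8 of 13 cases in turnover and 8 of 12 in autonomy. Chaf1a, a subunit of the CAF-1 complex, stood at 0.499 CPM in non-cycling and 53.8 CPM in cycling turnover barcodes and at 2.09 and 75.7 CPM in autonomy. Its non-cycling levels rest on few UMIs, so the size of its ratios is uncertain. Asf1b, which carries H3 and H4, stood at 8.23 and 221 CPM and at 11.8 and 167 CPM. None of the 13 was past 2-fold between the libraries in cycling barcodes. S phase and G2/M genes were all 2-fold higher in cycling barcodes, 20 of 20 in each list and library.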

How the data were processed

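The 2 gene expression libraries, 1 per condition, were deposited as tables of whole-number UMI counts per gene and barcode. Per the submitters' processing notes, Cell Ranger 3.0.2, Seurat 3.1.3.9002 and the mm10 build were used by the authors; which of their steps shaped these counts, the gene annotation and the calling of cells are not given in the sources used here. The V(D)J libraries, also 2, served only to find the largest autonomy clone. All 60 members were matched to RefSeq through its gene synonyms.

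Barcodes with 1000 or more UMIs were kept. No doublet caller was run and no doublets were removed; leaving out the 4% deepest barcodes was an alternative. UMIs were summed per library and cycling state and divided by the summed UMIs (CPM). Ratios between states or libraries were called at 2-fold, over genes with at least 200 UMIs over both sums for all barcodes and 100 within states. Intervals at 95% are Poisson for levels, conditional binomial for ratios and Clopper-Pearson for shares, all exact, and cover counting error only. TMM factors came from edgeR 4.0.16 in R 4.3.3 and figures from matplotlib 3.10.9; sums, exact intervals and tables were made with scipy 1.17.1 and pandas 2.3.3 on numpy 2.4.6 (Python 3.11.15). The counting of calls was tested on simulated data.

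The members, lists and comparisons were chosen with earlier results of these data known. Genes named were the 12 with the most UMIs, and the 4 highest and 4 lowest by autonomy over turnover in cycling barcodes and by cycling over non-cycling. Hist1h2ba, Hist1h2bc, Hist1h2be, Hist1h2bj, Hist1h4h, Hist3h2a and the copies named with the promoters were added after their values were seen. Hist1h2bg is named only for its promoter letters. Alternatives changed depth and quality filters, the cycling threshold, scaling, weighting, count minimums and the barcodes included.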

Additional observations from a re-analysis of the deposited data

Results flagged for a closer look

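Hist3h2ba stood higher in autonomy than in turnover in cycling barcodes (1.26, 43.8 against 34.9 CPM) and lower in non-cycling barcodes (0.886, 139 against 157 CPM). Each condition has 1 library, and the difference between these effects was not tested. Barcodes under 1000 UMIs, used in none of the comparisons above, held 235 member UMIs in autonomy, 1829.9 CPM (1603 to 2079), and 91 in turnover, 864 CPM (695 to 1061).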

How the results depend on the processing

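Each value is given in the order of the shares of cycling barcodes (turnover, autonomy; reported 19.9% and 14.3%), autonomy over turnover in all, cycling and non-cycling barcodes (0.781, 1.17, 1.33), cycling over non-cycling (11.5, 10.04), Mcm-led over Mki67/Top2a-led (0.376, 0.273) and, where named, other measures. With 3000 or more UMIs a barcode these were 66.0% and 34.9%, 0.891, 1.23 and 1.15, 12.5 and 13.3, 0.381 and 0.290. There 0 of 47 tested members were past 2-fold in all barcodes (2 of 47 reported), against 14.4% of all genes higher and 1.42% lower. Thinned to 1000 UMIs they were 35.9% and 33.3%, 0.756, 0.651 and 1.20, 5.81 and 3.16, 0.142 and 0.124. There 0 of 14 and 6 of 20 tested members were past 2-fold between libraries in all and cycling barcodes. The shares of all genes higher and lower were 7.96% and 1.06%, and 10.6% and 2.01%. Between states 13 of 17 and 6 of 13 members were past 2-fold (46 of 48 and 43 of 44 reported). There 3.5% and 0.953% of all genes were higher and 0.715% and 0.129% lower. Median non-cycling levels were 21.8% and 55.1% of cycling ones (11.6% and 10.6% reported). The order of Mcm-led and Mki67/Top2a-led turned for Hist3h2ba (1.555 and 1.21) and for Hist2h2be in autonomy (1.43). With cycling from 5 UMIs the shares were 16.4% and 7.32%, the ratios 1.35 in cycling barcodes, 11.98 and 12.1, 0.398 and 0.327. There 1 of 51 members was past 2-fold between libraries in cycling barcodes (0 reported), against 8.23% of all genes higher and 0.934% lower. From 10 per 10000 UMIs they were 17.7% and 10.6%, 1.34, 12.1 and 12.15, 0.405 and 0.311, with 1 of 51 members, against 9.75% and 0.825%. From 10 UMIs they were 15.5% and 6.03%, 1.44, 12.2 and 13.2, 0.405 and 0.338, with 2 of 51 members, against 7.29% and 0.864%. The median non-cycling level was then 8.02% in autonomy. TMM factors gave 0.637, 0.955 and 1.19, 16.96 and 13.4, and a median non-cycling level of 7.91% in autonomy. With them 9 of 47 members were past 2-fold in all barcodes, against 6.89% of all genes higher and 4.86% lower. At 5 times the count minimum 1 of 25 members in all barcodes and 27 of 28 and 18 of 18 between states were past 2-fold. The shares of all genes higher and lower were 10.8% and 1.79% in all barcodes. Between states these shares were 14% and 23.4% in turnover and 9.63% and 18.4% in autonomy. Without the 4% deepest barcodes the shares were 16.6% and 10.8%, the ratios 0.441 and 0.808, 13.3 and 8.07, 0.282 and 0.0997. There 23 of 45 and 2 of 46 members were past 2-fold between libraries in all and cycling barcodes. Of all genes 13.4% and 18.5% were higher there and 4.41% and 2.93% lower. Between states in autonomy 27 of 31 members were past 2-fold, against 4.8% of all genes higher and 3.98% lower. The level at 0 to 20% Mcm share over that at 80 to 100% was 14.7 in autonomy (8.43 and 6.98 reported), and the lowest ratio among the bins was 0.866 (1.44 reported). Without macrophage marker barcodes the ratio in cycling barcodes was 1.15. Without Hist1h2ap the ratios were 0.749, 1.08 and 1.10, 6.75 and 6.58, 0.363 in turnover, 7.64 and 7.27 along the bins, and 1.39 for the lowest bin. With Y-linked barcodes only they were 26.0% in turnover, 0.802, 1.23 and 1.45, 10.8 and 9.19, 0.417 and 0.316, 7.93 along the bins in turnover and 1.72 in the single bin left. There 7 of 44 and 6 of 48 members were past 2-fold between libraries in all and cycling barcodes. Of all genes 12.9% and 9.02% were higher there and 2.75% and 1.71% lower. Between states in autonomy 20 of 21 members were past 2-fold, against 11.3% of all genes higher and 22.9% lower. Without the largest autonomy clone the ratio in all barcodes was 0.790. Without mature marker barcodes the values were 12.5% in autonomy, 0.799 and 1.36, 11.5 and 0.286 in autonomy, 5.96 along the bins in autonomy and 1.56 for the lowest bin. There 2 of 51 members were past 2-fold between libraries in cycling barcodes, against 12.6% of all genes higher and 1.04% lower. Equal weight for each barcode gave 0.758 and 0.735, 6.22 in autonomy, 0.252 and 0.158, 7.65 along the bins in autonomy and 1.27 for the lowest bin. The causes of these changes were not tested. Of 2099 single gene ratios recomputed, 2008 stayed on the same side of 1, 91 fell on the other side and 201 moved by over 1.5 times. Among those past 2-fold as reported, 3 turned, the ones named above for Hist3h2ba and Hist2h2be. Of the 17 alternatives, 13 were set at the start and 4 were chosen after seeing the data. No paired analysis was possible because each condition has 1 library. With 1 library per condition, differences between animals and between conditions cannot be told apart, and depth limits non-cycling barcodes, where only 14 members had 100 UMIs.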
